A study of Mus musculus with 24 samples.

Results

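Antibody transcripts were examined through the constant-region genes of the immunoglobulin chains and through Jchain, the joining chain that links antibody units. The 10 genes, chosen by name, were the heavy-chain genes Ighm, Igha, Ighg1, Ighg2b, Ighg2c and Ighg3, the light-chain genes Igkc, Iglc1 and Iglc2, and Jchain. All 10 were among the 56422 gene names of the deposited table, and all 10 were among the 15163 names that passed a filter of at least 1 TPM in at least 6 libraries. TPM is a measure of transcript abundance per transcript length, scaled to a fixed total per library.

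The libraries came from 24 mouse samples labelled as peritoneum and described as peritoneal metastases, tumours that have spread over the abdominal lining, with 6 samples in each of 4 groups: propionate, butyrate, a combination of both acids, and control. Control samples carry the label of no treatment. Both acids are short-chain fatty acids, which gut bacteria release from fibre, and butyrate is longer than propionate by a single carbon. The title of the series concerns mannose, a gut microbial metabolite and anti-PD-1 therapy, an antibody treatment that releases T cells from inhibition, in ovarian cancer. No strain, tumour line, dose, duration or anti-PD-1 treatment is given in the sources used here for any group. Whether the samples of a group are separate animals is not stated, so the p-values refer to the spread among samples, and that spread may be technical.

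An antibody is built from heavy chains and light chains, and the constant region of the heavy chain sets its class. A mature B cell first makes IgM and IgD, whose constant genes Ighm and Ighd lie nearest the variable segments, and class switching later deletes the genes in between and brings an IgG, IgE or IgA constant gene into use. Plasma cells, the secreting end stage, hold very large amounts of these transcripts, so few cells can set the level of a tissue. In the mouse peritoneal cavity, B-1 cells are known for IgM, and the gut and its draining fat are known for IgA. In the GENCODE M21 annotation of the older GRCm38 build, the heavy-chain genes run along chromosome 12 in the order Ighm, Ighd, Ighg3, Ighg1, Ighg2b, Ighg2c, Ighe and Igha in the direction of transcription. Igkc lies on chromosome 6, the lambda genes on chromosome 16 and Jchain on chromosome 5. The files use the mm39 build, so no coordinates are given.

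The samples were unlike one another in tissue. Acta1, the actin of skeletal muscle, ran between 2.52 and 26808 TPM, and Wt1, a marker of mesothelium that ovarian tumours can also express, between 0 and 368 TPM. Libraries held 12618 to 15418 genes at 1 TPM or more, and the depth behind a TPM value is unknown. The library combination 5 stood apart. It held 2.52 TPM of Acta1 and 0 TPM of Wt1, whereas the B cell gene Ms4a1 reached 89.6 TPM and the T cell gene Cd3e 68.8 TPM. The summed TPM of genes of lymphoid tissue stroma was 5507 in it. Results that rest on this library are given with and without it.

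Antibody transcripts differed far more between samples of a group than between groups. The 10 genes together took between 30.3 and 3827 TPM in the propionate samples, with a median of 335 TPM. Butyrate samples held 29.8 to 1267 TPM with a median of 331 TPM, and combination samples 35.1 to 5092 TPM with a median of 2312 TPM. Control samples held 40.8 to 2864 TPM with a median of 1542 TPM. Each group thus had a library with almost no antibody RNA, namely propionate 1, butyrate 1, combination 6 and control 3, beside libraries with far more. In bulk tissue, fewer cells of a type and less RNA per cell cannot be told apart.

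Igkc, the constant region of the kappa light chain, was the most abundant of the 10 genes in 20 of 24 libraries. It ran from 5.71 to 1996 TPM in propionate samples (median 182) and from 2.07 to 613 TPM in butyrate samples (median 168). In combination samples it ran from 2.51 to 2830.3 TPM (median 1204), and in control samples from 11.5 to 1488 TPM (median 816). The ranges of all 4 groups overlapped. Combination 3 (2830.3 TPM), combination 4 (2212 TPM) and combination 5 (2417 TPM) lay above the highest value of every other group. Ighm, summed over its deposited rows, was the most abundant in the other 4 libraries, which were the 4 with almost no antibody RNA.

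**Figure D1:**
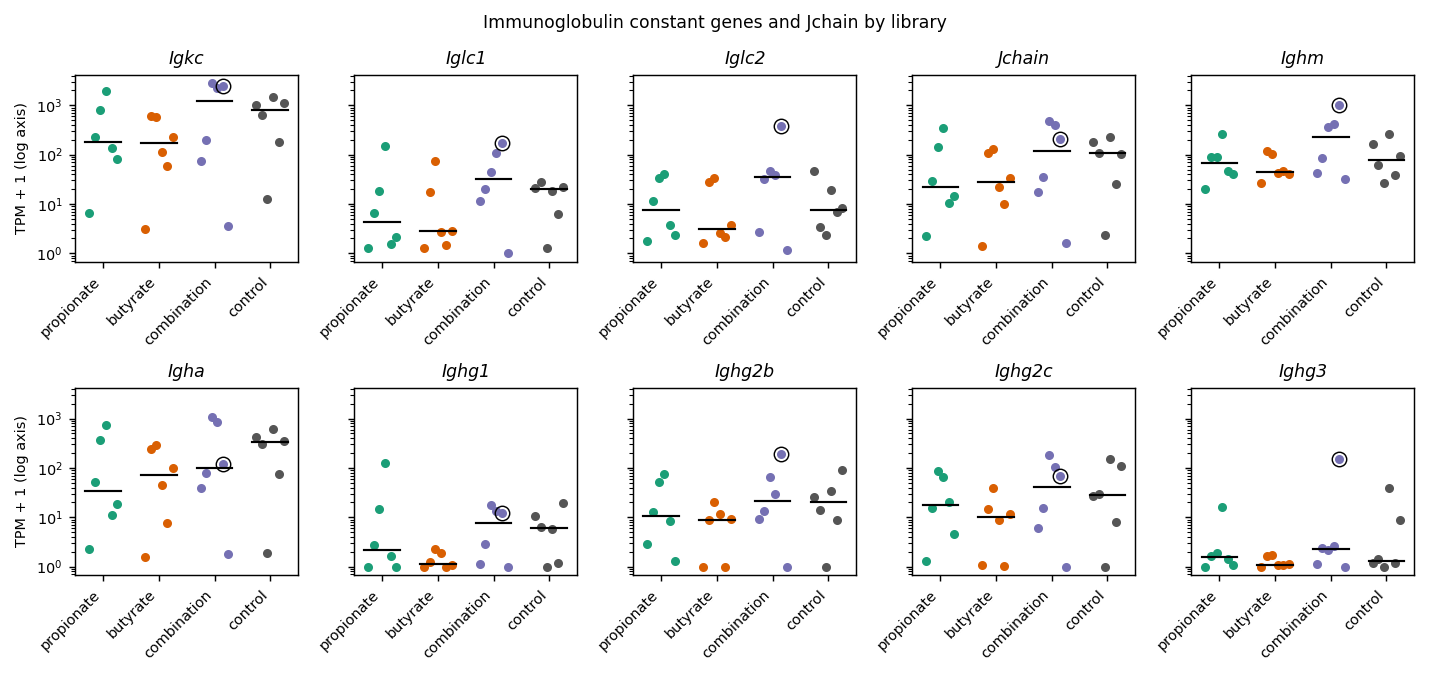
TPM + 1 on a log axis for each of the 10 genes, 1 panel per gene, with 1 point per library, a bar at the median of the 6 libraries of a group, and a ring around combination 5. In each panel the 4 groups overlap, and Igkc spans 2.07 to 2830.3 TPM over the 24 libraries.

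The lambda light chains, an alternative to kappa that mice use little, were lower. Iglc1 lay between 0.29 and 152 TPM in propionate, 0.26 and 74.1 TPM in butyrate, 0 and 170 TPM in combination, and 0.31 and 26.6 TPM in control samples. Iglc2 lay between 0.80 and 39.7 TPM in propionate, 0.59 and 32.7 TPM in butyrate, 0.16 and 375 TPM in combination, and 1.39 and 44.7 TPM in control samples. The highest Iglc2 value was that of combination 5, and the next in its group was 45.9 TPM. The order of the lambda genes was not fixed, since Iglc1 exceeded Iglc2 in 7 of 24 libraries. Iglc3, a close relative of Iglc2 outside the 10 genes, held 0 to 28.3 TPM in 23 libraries and 180 TPM in combination 5. The ends of the lambda coding sequences show how close Iglc2 and Iglc3 are. In the GENCODE M21 models, with capitals for bases that differ from Iglc2, the last 60 coding bases read:
Iglc2: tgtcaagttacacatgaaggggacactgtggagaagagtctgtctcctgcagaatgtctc
Iglc3: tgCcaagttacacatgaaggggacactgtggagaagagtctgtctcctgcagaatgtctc
Iglc1: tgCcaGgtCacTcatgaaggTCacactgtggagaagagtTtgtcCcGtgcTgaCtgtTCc
In this stretch Iglc3 differed from Iglc2 at 1 base and Iglc1 at 13. Over the aligned coding sequence Iglc2 and Iglc3 were identical at 303 of 314 bases (96.5%), and 14.3% of the 50-base stretches of Iglc2 also occurred in Iglc3. How the authors' quantification split reads between this pair is not given, so their separate values are uncertain. Iglc1 and Iglc2 were identical at 73.2% of bases and shared no 50-base stretch.

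Igha and Ighm were the leading heavy chains. Igha, the constant region of IgA, ran from 1.31 to 755 TPM in propionate samples (median 33.8) and from 0.55 to 288 TPM in butyrate samples (median 71.3). It ran from 0.79 to 1067 TPM in combination samples (median 99.2) and from 0.86 to 628 TPM in control samples (median 329). Over all 24 libraries its median of 87.7 TPM lay next to that of Ighm at 73.2 TPM, and neither gene was consistently above the other, since Ighm exceeded Igha in 11 libraries. Igha was the most abundant heavy chain in 13 libraries, of which 2 were propionate, 4 butyrate, 2 combination and 5 control. Ighm led in 4 propionate, 2 butyrate, 4 combination and 1 control library. These counts sum the pair of deposited Ighm rows described below. With the first row alone, Igha was above Ighm in combination 1 (37.8 against 13.98 TPM) and combination 2 (76.5 against 63.5 TPM) as well.

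Ighm, the constant region of IgM, lay between 18.8 and 256 TPM in propionate samples (median 66.4) and between 25.9 and 119 TPM in butyrate samples (median 44.1). Combination samples held 31.0 to 993 TPM (median 228) and control samples 25.4 to 261 TPM (median 76.3). Unlike Igkc or Igha, Ighm never came near 0. The deposited table splits it into a pair of transcript rows without transcript identifiers, and these behaved differently. The first row held 3.47 to 553 TPM over the 24 libraries. The second row held 14.2 to 49.7 TPM in 23 libraries and 440 TPM in combination 5. The second row made up between 5.41 and 86.6% of Ighm. Only the first row was low where the other antibody genes were low. For Igha the second row never exceeded 1.32 TPM, and for Igkc and Iglc1 there was a single row.

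**Figure D2:**
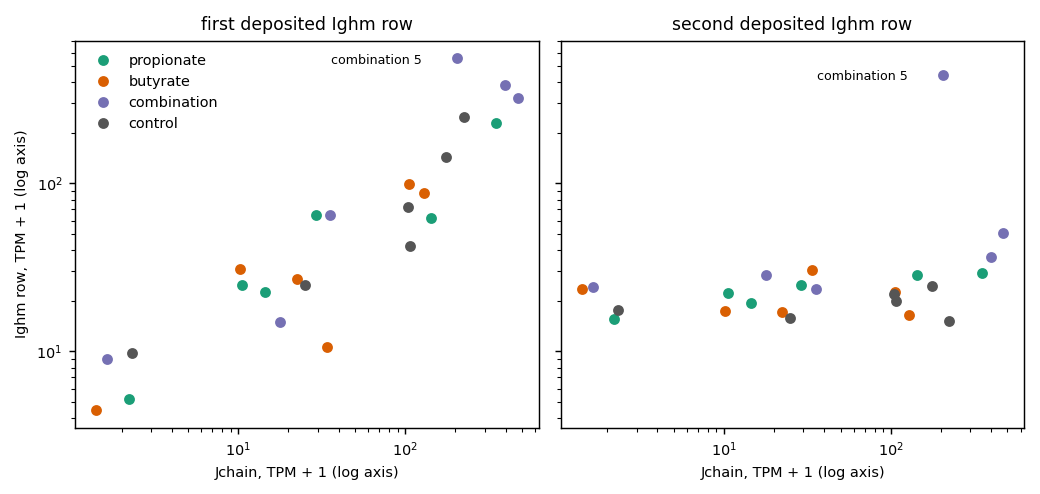
TPM + 1 of the first deposited Ighm row (left) and the second (right) against TPM + 1 of Jchain, both on log axes, with 1 point per library coloured by group. The first row spans 3.47 to 553 TPM along with Jchain, and the second stays between 14.2 and 49.7 TPM except in combination 5.

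Transcripts for the secreted and the membrane forms of a heavy chain come from the same gene and differ at the end of the coding sequence. In the secreted forms of IgM and IgA the next-to-last residue is the cysteine through which J chain is joined. The last 60 coding bases of a shorter and a longer GENCODE M21 model of each gene are given here, with the codon of that cysteine in capitals in the shorter models:
Ighm-201: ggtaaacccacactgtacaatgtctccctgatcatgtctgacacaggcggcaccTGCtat
Igha-201: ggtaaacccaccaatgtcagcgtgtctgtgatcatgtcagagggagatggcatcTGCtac
Ighm-202: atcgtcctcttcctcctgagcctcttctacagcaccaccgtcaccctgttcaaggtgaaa
Igha-202: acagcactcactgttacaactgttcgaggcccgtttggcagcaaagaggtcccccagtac
The coding sequence of Ighm-201 held 1364 bases and that of Ighm-202 held 1427 bases. Because the deposited rows carry no transcript identifier, neither Ighm row could be matched to a model, and the split into secreted and membrane form was not analysed here. Ighm and Igha were identical at 57.5% of aligned coding bases and shared no 50-base stretch.

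The IgG genes were lower than Igha and Ighm in nearly every library. Ighg2c, an IgG2 gene that some mouse strains carry in place of Ighg2a, lay between 0.32 and 86.8 TPM in propionate (median 16.8), 0.05 and 37.4 TPM in butyrate (median 9.38), 0 and 181 TPM in combination (median 40.7), and 0 and 150 TPM in control samples (median 27.6). Ighg2b was of like size, with medians of 9.66 TPM in propionate, 7.99 TPM in butyrate, 20.1 TPM in combination and 19.3 TPM in control samples, and it exceeded Ighg2c in 6 of 24 libraries. Both genes were identical at 862 of 1004 aligned coding bases (85.9%), and 5.85% of the 50-base stretches of Ighg2b also occurred in Ighg2c, so part of their values could be split between them. The other pairs of IgG genes shared no 50-base stretch.

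Ighg1, the IgG that in mice goes with help by IL-4, had a median of 1.2 TPM in propionate, 0.145 TPM in butyrate, 6.63 TPM in combination and 5.05 TPM in control samples. In butyrate samples it never exceeded 1.23 TPM, whereas its highest value was 124 TPM in propionate, 17.1 TPM in combination and 18.5 TPM in control samples. The lowest value was 0 TPM in every group, so the groups overlapped. Ighg3, known in mice for responses to carbohydrate antigens, had medians of 0.55 TPM in propionate, 0.10 TPM in butyrate, 1.29 TPM in combination and 0.305 TPM in control samples. A few libraries carried most of it, with 15.2 TPM in propionate 4, 151 TPM in combination 5 and 39.0 TPM in control 4.

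Jchain lay between 1.21 and 349 TPM in propionate samples (median 20.8), between 0.41 and 128 TPM in butyrate samples (median 27.2), between 0.64 and 471 TPM in combination samples (median 120) and between 1.32 and 223 TPM in control samples (median 105). It was below Igha in 21 of 24 libraries. Set against the classes it joins, it varied little. The ratio of Jchain to the sum of Igha and the first Ighm row was 0.245 to 0.355 (median 0.306) in the 20 libraries with at least 30 TPM of that sum, although the sum itself differed widely among them. The 4 libraries below 30 TPM held 5.51 TPM (propionate 1), 4.02 TPM (butyrate 1), 8.83 TPM (combination 6) and 9.64 TPM (control 3) of it. Their ratios were 0.220 in propionate 1, 0.102 in butyrate 1, 0.0725 in combination 6 and 0.137 in control 3. The limit of 30 TPM was set after the values were seen. The summed light chains were also set against the summed heavy chains. Leaving out the second Ighm row, the ratio of light to heavy TPM was 1.30 to 2.70 (median 1.71) in the same 20 libraries. It was 0.302 to 1.37 in the 4 below the limit. The value of 2.70 was that of combination 5, where the ratio was 1.93 with both Ighm rows counted.

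The 10 genes ranked the libraries alike. Over 24 libraries, Spearman's rho between pairs of them ran from 0.816 (Igha and Ighg3) to 0.973 (Igha and Jchain), with a median of 0.888 over 45 pairs. These are descriptions over libraries that share a fixed TPM total and differ in tissue. Outside the immunoglobulin genes, Jchain was most like Pou2af1 (rho 0.95), a B cell transcriptional coactivator, and Mzb1 (rho 0.93), an endoplasmic reticulum protein of B-1, marginal zone and plasma cells. H2-M2, Lax1 and Ltb followed with rho between 0.90 and 0.91. Igkc was most like Mzb1 (rho 0.96), and the summed IgG genes were also most like Mzb1 (rho 0.91) and then Cd79a (rho 0.91), a chain of the B cell receptor complex. Ighm was most like Pou2af1 (rho 0.93) and Mzb1 (rho 0.92).

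Igha was most like Ctse (rho 0.92), an aspartic protease, and H2-Eb1 (rho 0.91), a chain of major histocompatibility complex class II. That order rested on combination 5, since over the other 23 libraries Igha was most like Pou2af1 (rho 0.94) and Mzb1 (rho 0.93). H2-Eb1 (rho 0.92) and Pnliprp1 (rho 0.92) followed closely. Over the same 23 libraries Pnliprp1 had a rho of 0.92 with Jchain and 0.91 with Igkc. The rho of Igha with Wt1 was 0.77 over 24 libraries and 0.83 over these 23. The second Ighm row had its closest genes elsewhere, with Pltp (rho 0.82), which transfers phospholipids between lipoproteins, and Rab38 (rho 0.80) first. Without combination 5 these values for the second row were 0.80 for Pltp and 0.77 for Rab38, and Jchain kept a rho of 0.95 with Pou2af1 over 23 libraries.

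The median of Jchain was 159 TPM in the 10 libraries with at least 100 TPM of Wt1 and 15.2 TPM in the other 14, and the values overlapped; this limit was set with the values known. Among the 10, Jchain was 142 and 349 TPM in 2 propionate samples, 105 TPM in 1 butyrate sample, 396 and 471 TPM in 2 combination samples, and 24.0 to 223 TPM in 5 control samples. Among the 14 it lay between 1.21 and 28.1 TPM in 4 propionate samples, 0.41 and 128 TPM in 5 butyrate samples, 0.64 and 205 TPM in 4 combination samples, and was 1.32 TPM in 1 control sample. The number of samples with at least 100 TPM of Wt1 thus differed between the groups, and it was highest in control. The 9 mesothelium genes summed to 21.4 to 1290.0 TPM in propionate, 9.37 to 564 TPM in butyrate, 20.0 to 863 TPM in combination and 10.9 to 1560.4 TPM in control samples. All 9 passed the filter. Their part in the group differences was not tested.

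**Figure D3:**
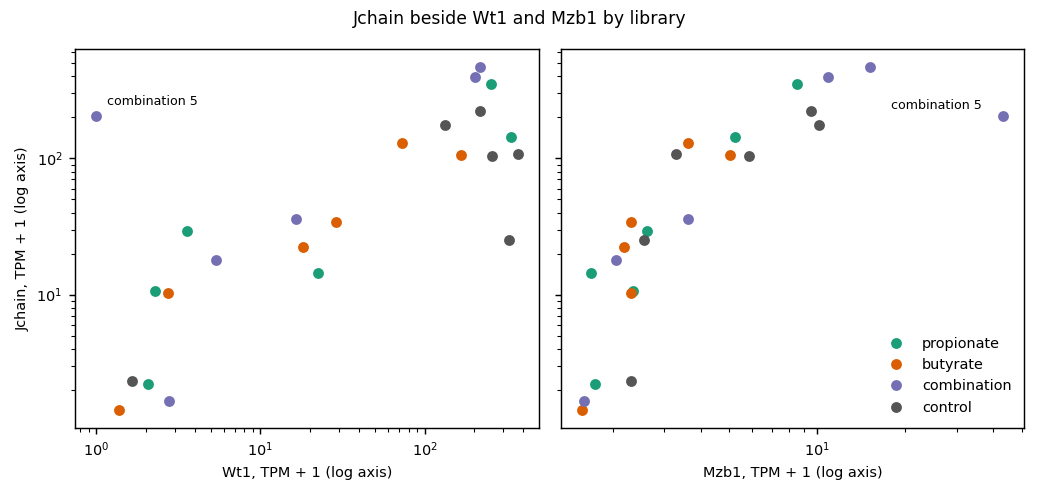
TPM + 1 of Jchain against TPM + 1 of Wt1 (left) and of Mzb1 (right), on log axes, with 1 point per library coloured by group. The 4 libraries with the lowest Jchain, 1 of each group, hold at most 1.76 TPM of Wt1, and combination 5 lies apart with 205 TPM of Jchain at 0 TPM of Wt1.

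The make-up of the heavy chains was compared as shares of the summed TPM of the 6 heavy-chain genes. In the 4 libraries with almost no antibody RNA, where the second Ighm row made up most of that sum, the Ighm share was 84.4% (propionate 1), 97.7% (butyrate 1), 97.5% (combination 6) and 96.7% (control 3). Ighm made up 48.5% ± 26.7 in propionate, 50.7% ± 33.1 in butyrate, 50.5% ± 27.3 in combination and 33.9% ± 31.4 in control samples (SD, n = 6 each). Igha made up 32.5% ± 22.7 in propionate, 40.9% ± 27.6 in butyrate, 35.6% ± 25.4 in combination and 51.6% ± 24.9 in control samples (SD, n = 6 each). The 4 IgG genes made up 19.0% ± 10.02 in propionate, 8.39% ± 7.52 in butyrate, 13.9% ± 8.89 in combination and 14.5% ± 11.4 in control samples (SD, n = 6 each). The mean share of IgM was thus higher and that of IgA lower in each treated group than in control, by less than the SD within groups. At least 100 TPM of Wt1 was reached by 5 control, 2 propionate, 1 butyrate and 2 combination samples. Among these the Igha share was 58.5 to 62.7% in treated and 52.6 to 73.9% in control samples. Below that limit it was 2.07 to 64.1% in treated samples and 3.27% in control 3. The part of tissue in the share differences was not tested.

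Tested by two-sided exact permutation over every arrangement of the 6 treated and 6 control samples, no share passed an adjusted p of 0.05 against control. The differences in the Ighm share were 14.6 percentage points with propionate (exact p = 0.418), 16.7 with butyrate (exact p = 0.277) and 16.6 with the combination (exact p = 0.357). All 3 comparisons use the same control samples. The Igha share differed by -19.1 percentage points with propionate (exact p = 0.203), -10.7 with butyrate (exact p = 0.489) and -16.0 with the combination (exact p = 0.264). In 12 tests of shares the Benjamini-Hochberg adjusted exact p ran from 0.587 to 0.909. Single libraries moved these differences in both directions. Without control 3 the differences in the Ighm share were 27.1 percentage points with propionate, 29.3 with butyrate and 29.2 with the combination. Without the treated library of almost no antibody RNA they were 7.41 with propionate (without propionate 1), 7.33 with butyrate (without butyrate 1) and 7.23 with the combination (without combination 6). The Igha share likewise ran from -28.8 (without control 3) to -13.8 (without propionate 1) with propionate, from -20.3 (without control 3) to -2.90 (without butyrate 1) with butyrate, and from -25.7 (without control 3) to -9.41 (without combination 6) with the combination. The smallest adjusted exact p over the 12 shares with any single library left out was 0.156. Without combination 5 the difference in the Ighm share was 13.8 percentage points and in the Igha share -10.5.

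The shares were also computed with the first Ighm row alone, a choice made after the rows were seen. The Ighm share then differed from control by 6.42 percentage points with propionate (exact p = 0.712), 12.1 with butyrate (exact p = 0.524) and 11.6 with the combination (exact p = 0.474). The Igha share differed by -16.6 with propionate, -6.76 with butyrate and -13.7 with the combination. The IgG share differed by 10.1 percentage points with propionate (exact p = 0.171), and by 4.52 with both rows (exact p = 0.485). With the first row alone every adjusted exact p was 0.747.

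**Figure D4:**
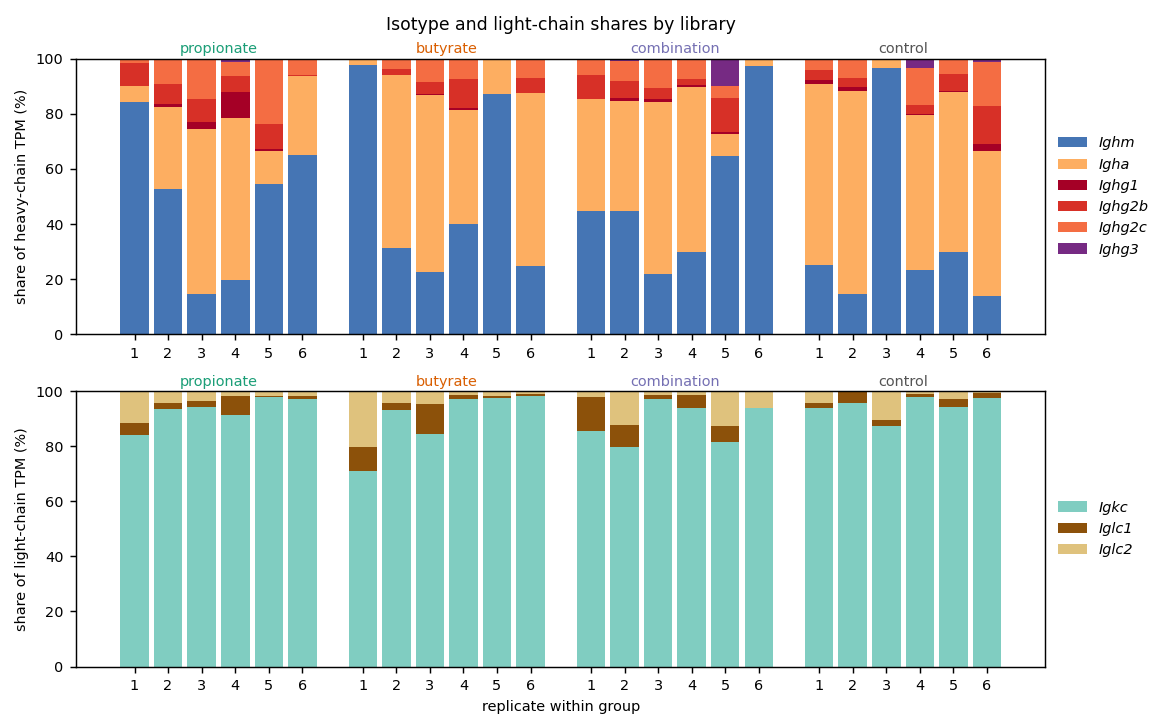
Share of each of the 6 heavy-chain genes in the summed heavy-chain TPM (top) and of each of the 3 light-chain genes in the summed light-chain TPM (bottom), in percent, as 1 stacked bar per library, with replicates 1 to 6 of propionate, butyrate, combination and control from left to right. Igha takes 52.6 to 73.9% in 5 of 6 control bars and 3.27% in control 3, and the 3 other libraries with almost no antibody RNA are also mostly Ighm.

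Kappa dominated the light chains in every library. Igkc made up 92.9% ± 4.99 of light-chain TPM in propionate, 90.2% ± 10.7 in butyrate, 88.7% ± 7.24 in combination and 94.3% ± 3.86 in control samples (SD, n = 6 each). The lowest shares were 70.9% in butyrate 1, a library with 2.07 TPM of Igkc, and 79.8% in combination 2. Combination samples had a mean 5.68 percentage points below control, the smallest p of the 12 tests (two-sided exact permutation p = 0.0974, adjusted p = 0.587), and the combination sample was higher in 8 of 36 pairs. Without combination 5 the difference in the Igkc share was -4.27 percentage points. Iglc1 took 12.4% of the light-chain TPM in combination 1 and 7.67% in combination 2, and Iglc2 took 12.5% in combination 2 and 12.7% in combination 5.

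Combination 5 differed in the kind of antibody RNA from combination 3 and combination 4, which were of like total. Ighm made up 64.6% of its heavy chains, the IgG genes 27.4% and Igha 7.94%, whereas Igha made up 62.7% in combination 3 and 59.9% in combination 4. Libraries with less antibody RNA reached like shares, with 64.9% of Ighm in propionate 6, 33.6% of IgG in control 6 and 12.1% of Igha in propionate 5. Ighg3 reached 9.83% of the heavy chains of combination 5. Ighd, the constant region of IgD that naive B cells carry beside IgM, was 318 TPM in combination 5 and 0.30 to 2.37 TPM in the other 23 libraries. The B cell list summed to 1004 TPM in combination 5, and its median was 24.0 TPM in propionate, 27.8 TPM in butyrate, 54.4 TPM in combination and 44.2 TPM in control samples.

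Variable segments, which encode the antigen-binding end of each chain, were counted by name. The table names 183 Ighv genes, of which 101 reached 1 TPM in at least 1 library, and 160 Igkv genes, of which 92 did. Between 2 and 68 Ighv genes reached 1 TPM in a propionate sample, 1 and 52 in a butyrate sample, 0 and 91 in a combination sample, and 3 and 63 in a control sample. The most abundant Ighv gene took 6.12 to 32.01% of the Ighv TPM in the 20 libraries above the 30 TPM limit and 26.9 to 58.8% in the 4 below it. The most abundant Igkv gene took 11.6 to 40.4% of the Igkv TPM in the 20 libraries. Ighv1-55 was the leading Ighv gene in 6 libraries, among them 2 butyrate, 3 combination and 1 control. Reads of variable segments can be shared between close relatives, so these shares are approximate.

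Group differences in each gene were tested on log2(TPM + 1) with limma, in a single fit of all 24 libraries and with Benjamini-Hochberg adjustment over the 15163 genes. Fold changes on this scale understate the change of genes near 0. No gene of any kind passed an adjusted p of 0.05 in any of the 7 comparisons made, which were each treated group against control, the 3 pairs of treated groups, and the interaction. None of the 10 antibody genes had an unadjusted limma p under 0.05 in any of them. Among all genes, an unadjusted p under 0.05 was reached by 1385 lower (9.13%) and 66 higher genes (0.435%) with propionate, by 5325 lower (35.1%) and 181 higher genes (1.19%) with butyrate, and by 622 lower (4.1%) and 940 higher genes (6.2%) with the combination.

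With propionate all 10 genes had a fold change below 0, as did 79.3% of all genes tested, with 20.7% above. The median over the 10 was -0.54 and over all genes -0.30 on the log2 scale. Igha gave -1.55 ± 1.73 (SE, adjusted p = 0.554 by limma), Igkc -1.07 ± 1.68 and Jchain -0.95 ± 1.47. Between these and 0 lay Iglc1 at -0.78 ± 1.29, Ighg2c at -0.55 ± 1.37, Ighg3 at -0.52 ± 1.04 and Ighg2b at -0.46 ± 1.24. Ighm gave -0.30 ± 0.77, and Ighg1 and Iglc2 lay nearest to 0 at -0.02 ± 1.04 and -0.13 ± 1.2. Without propionate 1 Igha gave -0.71, Igkc -0.13 and Jchain -0.22, and without control 3 they gave -2.77 (Igha), -2.05 (Igkc) and -1.86 (Jchain). Scaling by median of ratios moved the median of all genes by 0.29 and put 3 of the 10 above 0. Relative to the median of all genes, 2 of the 10 lay above as deposited and 3 under that scaling.

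With butyrate all 10 genes again lay below 0, against 78.8% of all genes below and 21.2% above, with a median of -1.39 for the 10 and -0.38 for all genes. This comparison and those with propionate and the combination share the 6 control samples. Ighg1 had the smallest p of the 10, with -1.78 ± 1.04 (SE, limma adjusted p = 0.198, between 0.0655 and 0.358 over the other settings), and the butyrate sample was higher in 7 of 36 pairs. Ighg2c gave -1.78 ± 1.37, Igkc -1.75 ± 1.68, Igha -1.69 ± 1.73 and Ighg2b -1.51 ± 1.24. Ighg3 gave -1.26 ± 1.04, Jchain -1.24 ± 1.47 and Iglc1 -1.12 ± 1.29. Ighm at -0.54 ± 0.77 and Iglc2 at -0.63 ± 1.2 were nearest to 0. All 10 also lay below the median of all genes. Markers of other tissues lay below control beside them: the 9 mesothelium genes were all below 0 with propionate (median -1.76), butyrate (median -2.05) and the combination (median -1.39), and 2 of 9 exocrine pancreas genes passed the filter and were below 0 in each, with medians of -1.60, -1.78 and -1.03 in the same order. The pancreas list summed to 0.52 to 36.8 TPM in propionate, 1.18 to 11.5 TPM in butyrate, 2.81 to 29.8 TPM in combination and 1.59 to 41.5 TPM in control samples. Their part in the antibody values was not tested. Control 3, the control library with almost no antibody RNA, was also the only control sample under 100 TPM of Wt1 (0.65 TPM). Below that limit lay 5 butyrate samples as well. Without control 3, 5654 genes passed an adjusted p of 0.05 in this comparison and none of the 10 was among them. Ighg1 then gave -2.22, Igha -2.91, Igkc -2.72 and Jchain -2.15. Without butyrate 1, the butyrate library with almost no antibody RNA, Igha gave -0.76, Igkc -0.72 and Jchain -0.43.

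With the combination 8 of the 10 genes lay above 0 and 2 below, against 34.1% above and 65.9% below among all genes, and the median was 0.20 for the 10 and -0.12 for all genes. Without combination 5 only 3 of the 10 lay above 0 and 7 below, against 30.2% above and 69.8% below, and the median was -0.28 for the 10. Iglc2 gave 1.22 ± 1.2 (SE, adjusted p = 0.672 by limma), and 0.38 ± 1.14 without combination 5. Iglc1 gave 1.09 ± 1.29, and 0.52 ± 1.33 without combination 5. Ighm gave 1.02 ± 0.77 (limma adjusted p = 0.593), and 0.50 ± 0.74 without combination 5. The combination sample had more Ighm in 24 of 36 pairs. Ighg3 gave 0.30 ± 1.04 with combination 5 and -0.78 ± 0.80 without it. Ighg1 at 0.01 ± 1.04, Ighg2b at 0.34 ± 1.24 and Ighg2c at 0.03 ± 1.37 were near 0. Igha at -0.47 ± 1.73, Igkc at -0.27 ± 1.68 and Jchain at 0.11 ± 1.47 had SEs larger than the changes. Without combination 6 they gave 0.67 (Igha), 1.02 (Igkc) and 1.14 (Jchain), and without control 3 -1.69 (Igha), -1.24 (Igkc) and -0.80 (Jchain).

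**Figure D5:**
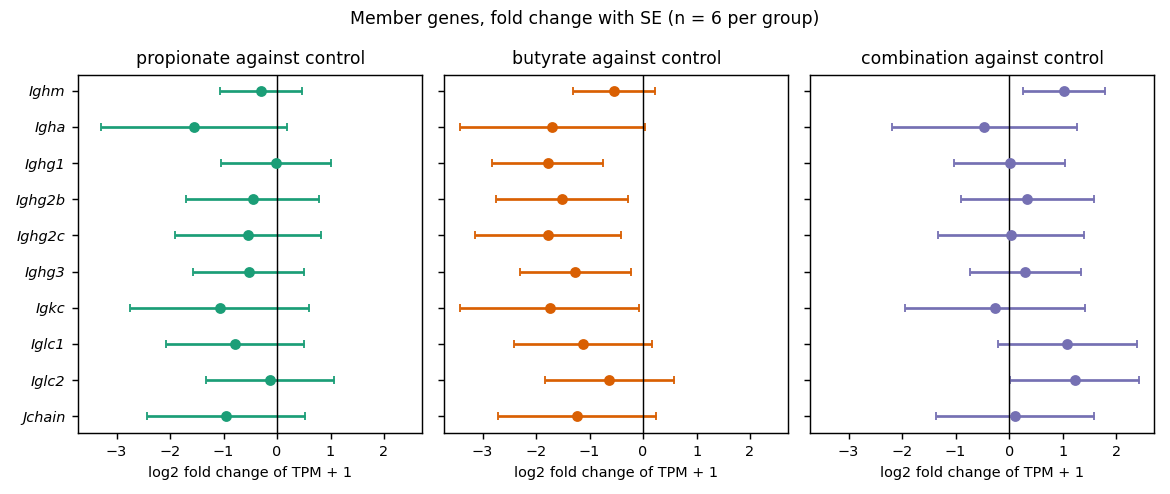
Difference of mean log2(TPM + 1) from control for each of the 10 genes with propionate (left), butyrate (middle) and the combination (right), with bars of ± 1 SE from limma (n = 6 per group) and a line at 0. The SE runs from 0.77 for Ighm to 1.73 for Igha, and no gene passed an adjusted p of 0.05.

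Against the single acids, the combination had higher mean log2 values of all 10 genes. Against butyrate, where 81.6% of all genes lay above 0 and 18.4% below (unadjusted p under 0.05 in 14.6% higher and 0.93% lower), the median over the 10 was 1.68 and over all genes 0.30, and it was 1.09 without combination 5. Iglc1 gave 2.21 ± 1.29 and Ighm 1.57 ± 0.77 (SE, limma adjusted p = 0.324, between 0.116 and 0.680 over the other settings). Against propionate, where 76.9% of all genes lay above 0 and 23.1% below (unadjusted p under 0.05 in 8.43% higher and 0.429% lower), all 10 were above 0. With combination 5 left out, 8 of 10 were above 0, near the 74.9% of all genes. Butyrate and propionate, which differ in length by a single carbon, were compared at doses that are not given. All 10 genes were lower with butyrate than with propionate, as were 70.3% of all genes with 29.7% higher, and none had an unadjusted limma p under 0.05, which 0.541% of all genes reached lower and 0.165% higher.

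The interaction asks whether adding butyrate acts alike with and without propionate, and is the log2 change of the combination against propionate less that of butyrate against control. It was above 0 for all 10 genes and for 83.7% of all genes, with 16.3% below. Its median was 2.30 over the 10 and 0.62 over all genes, and 1.79 over the 10 without combination 5. None of the 10 had an unadjusted limma p under 0.05, whereas 34.8% of all genes did in the higher and 0.95% in the lower direction. Without propionate 3, 5619 genes passed an adjusted p of 0.05 for the interaction and none of the 10 was among them.

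Other genes of the B cell lineage were counted from lists of known markers. Of 15 B cell genes 8 passed the filter, and 7 of these lay above 0 with the combination, both with and without combination 5, against 34.1% of all genes with that library and 30.2% without it. The median of the list was 1.03 with combination 5 and 0.36 without it. None passed an adjusted p of 0.05. Ebf1, a transcription factor of early B cells that fat cell precursors also use, gave 1.03 ± 0.28, Bank1, a B cell scaffold protein, 1.10 ± 0.48, and Cd37, a B cell tetraspanin, 1.02 ± 0.47 (SE, adjusted p above 0.05 by limma). Without combination 5 these were 0.74 ± 0.21 for Ebf1, 0.41 ± 0.16 for Bank1 and 0.41 ± 0.24 for Cd37. The adipocyte list moved with them, with 8 of 8 genes above 0 and a summed level of 1081 to 18906 TPM in combination and 672 to 2019 TPM in control samples. Its median change was 1.72 with combination 5 and 1.24 without it. Its part in these values was not tested. With propionate and with butyrate 3 of the 8 B cell genes lay above 0, against 20.7% of all genes with propionate and 21.2% with butyrate.

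Of 19 plasma cell genes 17 passed the filter, and 14 lay below 0 with propionate, 14 with butyrate and 9 with the combination. Of all genes 79.3% lay below 0 with propionate, 78.8% with butyrate and 65.9% with the combination, so the single-acid counts were near that background. With combination 5 left out, 10 of the 17 lay below 0 with the combination, against 69.8% of all genes. Xbp1, the transcription factor of the secretory programme, gave -0.59 ± 0.20 with propionate, -0.67 ± 0.20 with butyrate and -0.17 ± 0.20 with the combination. Irf4, needed for plasma cell differentiation, gave 0.16 ± 0.24 with propionate, 0.07 ± 0.24 with butyrate and 0.78 ± 0.24 with the combination (0.51 ± 0.17 without combination 5). Mzb1 gave -0.63 ± 0.65 with propionate, -0.84 ± 0.65 with butyrate and 0.49 ± 0.65 with the combination (-0.05 ± 0.58 without combination 5). No gene of the list passed an adjusted p of 0.05. Many members of the list, Xbp1 among them, are also expressed by other secretory cells.

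The genes of class switching and hypermutation had 7 of 8 members above the filter, and all 7 lay below 0 with propionate and with butyrate, and 6 with the combination, against 79.3% of all genes with propionate, 78.8% with butyrate and 65.9% with the combination. Ung, which removes uracil from DNA, gave -0.71 ± 0.32 with propionate, -1.01 ± 0.32 with butyrate and -0.87 ± 0.32 with the combination. Exo1, an exonuclease of mismatch repair, gave -1.06 ± 0.43 with propionate, -1.20 ± 0.43 with butyrate and -1.04 ± 0.43 with the combination. Both also act in dividing cells of any kind. Batf, a transcription factor that class switching requires, gave 0.76 ± 0.32 with the combination and 0.46 ± 0.26 without combination 5.

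Of the receptors that bind or carry immunoglobulin, 8 of 11 passed the filter, and 8 lay below 0 with propionate, 8 with butyrate and 1 with the combination, against 79.3, 78.8 and 65.9% of all genes in the same order. With combination 5 left out, 2 of the 8 lay below 0 with the combination, against 69.8% of all genes. Fcgrt, the receptor that protects IgG from breakdown, gave 0.28 ± 0.14 with the combination and 0.21 ± 0.13 without combination 5. Among cytokines and chemokines of antibody responses 6 of 16 passed the filter, and 3 of these lay above 0 with the combination, or 2 without combination 5, against 34.1 and 30.2% of all genes. Cxcl12, which holds plasma cells in their niches, gave 0.75 ± 0.22 (0.50 ± 0.16 without combination 5) and Ccl25, which draws IgA-secreting cells to the small intestine, -0.55 ± 0.21. Of 10 intestinal epithelium markers 1 passed the filter, and they summed to 2.50 to 7.32 TPM in propionate, 3.36 to 7.62 TPM in butyrate, 4.06 to 77.6 TPM in combination and 2.78 to 8.57 TPM in control samples. No gene of these lists passed an adjusted p of 0.05 by limma.

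Genes of B cell receptor signalling had 6 of 8 members above the filter, of which 5 lay above 0 with the combination, with and without combination 5, and 6 lay below 0 with propionate and with butyrate. Of all genes 34.1% lay above 0 with the combination and 30.2% without combination 5, and 79.3% lay below 0 with propionate and 78.8% with butyrate. Of 7 B-1 cell genes 6 passed the filter, and 4 lay above 0 with the combination, or 3 without combination 5. All 12 T cell genes lay above 0 with the combination, with and without that library. The median change of the list was 1.36 with combination 5 and 0.64 without it. Their summed level reached 1284 TPM in combination (median 71.55) and 36.0 TPM in control samples (median 31.7). Among combination samples Cd3e was 68.8 TPM in combination 5 and next highest in combination 4, at 7.07 TPM. All 10 skeletal muscle genes lay below 0 with the combination, against 65.9% of all genes, and 1 of 10 did without combination 5, against 69.8%. Their part in the antibody values was not tested, and no gene of these lists passed an adjusted p of 0.05 by limma.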

How the data were processed

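Abundance was measured by RNA sequencing of polyadenylated RNA in stranded libraries, per the labels' protocols. The submitters' processing notes name fastp, HISAT2, StringTie and mm39, without versions, order or annotation. The authors deposited TPM for 149132 transcript rows, each library summing to 1000000, so a gene that takes a larger share lowers the others. TPM keeps no depth, and no counting interval was given. Rows without a gene name (1001, holding 0.174 to 0.47% of TPM) were left out.

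From the deposited TPM, rows were summed by gene name and taken as log2(TPM + 1), with a pseudocount of 1. Names that reached 1 TPM in 6 or more libraries were fitted with limma 3.58.1 in R 4.3.3 (trend and robust moderation, two-sided, Benjamini-Hochberg adjustment, threshold 0.05), after the code was tested on simulated data. Shares were computed per library and compared by two-sided exact permutation, written in Python 3.11.15 with numpy 2.4.6. Ranks for the genes of highest Spearman rho came from scipy 1.17.1. Values after ± are SDs for shares and SEs for log2 changes.

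The 10 genes and the lists were chosen with earlier results of these data known. All 10 genes were named in each comparison with control. From each list up to 4 genes of smallest p with the combination were eligible, and the 5 genes of highest Spearman rho were found for 5 antibody measures and for each Ighm row. Xbp1, Mzb1 and other names outside that rule were chosen after their values were seen. Sequences came from GENCODE M21 (GRCm38), in which 10 of 10 genes matched by symbol. Other settings were another pseudocount, filters, scalings, moderation, blocks by replicate number and leaving out each library.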

Additional observations from a re-analysis of the deposited data

Results flagged for a closer look

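In 64 sets of 6 samples (each gene, share or ratio in each group), the highest or lowest sample was looked at for a gap to its neighbour that, over the range, exceeds Dixon's 95% critical value. Chance alone gives about 1 in 20 in independent sets of normally distributed values. These sets share libraries and genes, so the 11 found cannot be set against that rate. For Ighg3 the highest samples stood apart, propionate 4 at 4.01 (15.2 TPM) and combination 5 at 7.25 (151 TPM), both on the log2(TPM + 1) scale. The other results were in the 4 libraries with almost no antibody RNA, where the values rest on a few TPM. In propionate 1 the ratio of light to heavy TPM was 0.305 with both Ighm rows counted, and 0.884 without the second row. The ratio of Jchain to Igha plus the first Ighm row was 0.102 in butyrate 1 and 0.0725 in combination 6. In control 3, Igha was 0.9 on the log2(TPM + 1) scale (0.86 TPM). The Ighm share there was 96.7%, the Igha share 3.27% and the Igkc share 87.1%, and the Jchain ratio was 0.137. The ratio of light to heavy TPM in control 3 was 0.503 with both Ighm rows counted, and 1.37 without the second row.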

How the results depend on the processing

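None of the 10 genes passed an adjusted p of 0.05 in any of 1210 fits over the settings tried. Counts over all genes moved from 0 to 35 by median-of-ratios scaling and 41 by quantile normalization in the combination against control. Same-numbered samples did not all deviate together, so the numbers were not taken as pairs (correlation of deviations over 0.1 in 16 of 36 pairs by title and 18 of 27 by library number; a sample correlated best with its own number in 12 of 72 and 11 of 54 cases). By library number all 4 pairs of the combination and propionate exceeded 0.1, and that comparison gave 0 genes with and without the block. A replicate block by library number gave 7903 genes for butyrate against control, 5 for the combination against butyrate and 5426 for the interaction of propionate and butyrate, and the block by title number 0 throughout. With each library left out, counts ran from 0 to 5654 for butyrate against control (without control 3), 0 to 2 for the combination against control (without combination 6), 0 to 1 for the combination against butyrate (without butyrate 6 or combination 6) and 0 to 5619 for the interaction (without propionate 3), with 0 where any other library was left out. The cause was not tested.

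With propionate, Ighm became 0.059 by median-of-ratios, Ighg1 0.12 by median-of-ratios, 0.23 by quantile and 0.36 by the library-number block, and Iglc2 0.13, 0.17 and 0.22 under the same settings in that order. With the combination, Ighg1 became -0.0504 with a pseudocount of 0.1 and -0.20 by the library-number block, and Ighg2c -0.15 by that block. With each library left out in turn, the propionate changes ran from -0.69 to 0.046 (Ighm), -0.98 to 0.42 (Ighg1), -1.23 to 0.15 (Ighg2b), -1.44 to 0.15 (Ighg2c), -1.12 to 0.23 (Ighg3) and -0.61 to 0.35 (Iglc2). The combination changes ran from -1.69 to 0.67 (Igha), -0.42 to 0.46 (Ighg1), -0.44 to 1.19 (Ighg2b), -0.86 to 0.92 (Ighg2c), -0.78 to 1.05 (Ighg3), -1.24 to 1.02 (Igkc) and -0.80 to 1.14 (Jchain).

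For shares in percentage points, the IgG share with the combination became 3.17 by medians and 2.09 with the first Ighm row alone (chosen after seeing the data), and -3.49 to 3.22 with libraries left out. The Igkc share became 0.39 with propionate for a denominator of at least 10 TPM (-2.84 to 0.39 with libraries left out) and 0.28 with butyrate by medians. Unknown depth limits values under a few TPM.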
